A study of Mus musculus with 6 samples.

Results

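The genes described here are 48 enzymes of hepatic amino acid catabolism other than the breakdown of tyrosine. They were taken by name from the known pathways, with no threshold on a measured value but with earlier results of these data known, and all 48 were found among the 35970 gene symbols of the table. Each of them also had a mean above 1 TPM, the filter that left 10598 genes for testing. TPM is the share of a library that a transcript holds, corrected for its length, so levels of different genes can be set side by side. The 48 genes fall into 9 groups by amino acid, which are tryptophan (8 genes), histidine (4), proline and hydroxyproline (3), glycine and serine (9), methionine and cysteine (8), the branched chain amino acids (9), lysine (2), alanine and glyoxylate (3), and pyrimidines with beta-alanine (2).

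The liver is the main site where surplus amino acids are broken down. Tryptophan is opened by a dioxygenase and passes along the kynurenine pathway towards NAD or complete oxidation, histidine is deaminated by histidase, and glycine is split in mitochondria by a cleavage complex. Methionine is turned into S-adenosylmethionine, the methyl donor of the cell, and then through homocysteine into cysteine, while the branched chain amino acids and lysine are oxidised in mitochondria to acyl-CoA intermediates that feed the citric acid cycle or ketone bodies.

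Ribosome-bound RNA of repopulating hepatocytes was measured in 6 mouse livers, from 3 Neurl1b CRISPRi mice and 3 non-targeting mice. All 6 mice were Fah-/-;dCas9+, so all of them lacked the last enzyme of tyrosine breakdown and depended on nitisinone, given at 7.5 µg/mL until the injection. Each mouse then received 10 µg of a transposon plasmid, pkt2-fah-GFPL10a-CRISPRi-Neurl1b in one group and pkt2-fah-GFPL10a-CRISPRi-Nontargeting in the other, with the virus AAV8.TBG.PI.Cre.rBG by hydrodynamic tail vein injection. Both plasmids therefore restored Fah and tagged the ribosomal protein L10a with GFP, and the TBG promoter limits Cre to hepatocytes. Nitisinone was stopped at once, the livers were taken 4 weeks later, and ribosomes were pulled down from 400 mg of liver with an antibody to GFP. The labels give neither the number of guides per plasmid nor the age and sex of the mice. The replicates are separate mice, so each p-value measures the spread between mice. In such bulk samples, fewer cells of a type and less RNA per cell cannot be told apart.

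Neurl1b, the ubiquitin ligase gene targeted by the guide, was at 0.295, 0.351 and 0.307 TPM in the Neurl1b CRISPRi mice, against 1.22, 0.897 and 0.688 TPM in the non-targeting mice. The groups did not overlap, and the mean was 2.95-fold lower in the Neurl1b CRISPRi mice (two-sided exact permutation test, p = 0.1, which is the smallest that 3 against 3 allows). Marker sums for the cell types a liver holds are given because they differed between the libraries. The 9 hepatocyte markers found summed to 25547, 27591 and 34529 TPM in the Neurl1b CRISPRi mice, against 37166, 62244 and 29896 TPM in the non-targeting mice, with 2 of them lower without overlap. The 8 macrophage markers summed to 63.5 to 96.1 TPM in the Neurl1b CRISPRi mice and to 43.9 to 73.7 TPM in the non-targeting mice, with 5 of them higher without overlap. The 8 stellate cell markers summed to 28.0 to 41.0 TPM in the Neurl1b CRISPRi mice and to 11.4 to 25.7 TPM in the non-targeting mice, with 3 higher without overlap. The 8 endothelial markers summed to 18.1 to 27.0 TPM in the Neurl1b CRISPRi mice and to 17.8 to 24.2 TPM in the non-targeting mice, with 1 lower and 2 higher without overlap. The 5 erythroid markers summed to 1567, 490 and 1140 TPM in the Neurl1b CRISPRi mice, against 939, 3880 and 1139 TPM in the non-targeting mice, with 1 lower without overlap. The cholangiocyte and lymphocyte lists each had 1 marker lower and 1 higher without overlap. A mean of at least 1 TPM was reached by 0 of 7 lymphocyte, 3 of 6 cholangiocyte and 4 of 8 endothelial markers. It was also reached by 5 of 8 stellate cell and 6 of 8 macrophage markers. Of 14 periportal hepatocyte markers 1 was lower without overlap, and of 14 pericentral ones 2 were lower and 2 higher. Among all tested genes 4.57% were lower and 12.5% higher without overlap. The marker counts include markers under a mean of 1 TPM, which the tested genes do not. No marker of any list was at 0 in every library, and the part of these cells in the results below was not tested.

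The control libraries were less alike than the Neurl1b CRISPRi libraries. Across all tested genes, log2 values of the Neurl1b CRISPRi libraries had correlations of 0.984 to 0.991 with each other, while those among the controls were 0.965 to 0.978, which carries no test because genes are not independent. With the Neurl1b CRISPRi libraries, non-targeting mouse 1 had 0.982 to 0.987, mouse 3 had 0.968 to 0.976 and mouse 2 had 0.950 to 0.959, the lowest of all pairs. Mouse 2 also had the highest hepatocyte and erythroid marker sums of the 6 libraries. Among the catabolic genes, non-targeting mouse 1 had the highest TPM of the 3 control mice in 37 of 48 genes (77.1%), against 67.9% of all tested genes. Among the Neurl1b CRISPRi mice, mouse 3 was highest in 39 of 48 genes (81.2%), against 29.8% of all tested genes, and it also had the highest hepatocyte marker sum of that group. Taken over all 6 libraries, Neurl1b CRISPRi mouse 3 was highest in 16 genes and non-targeting mouse 1 in 21, and neither was the lowest library for any of the 48. The lowest value was that of Neurl1b CRISPRi mouse 1 in 15 genes, non-targeting mouse 2 in 13 and non-targeting mouse 3 in 17.

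**Figure D1:**
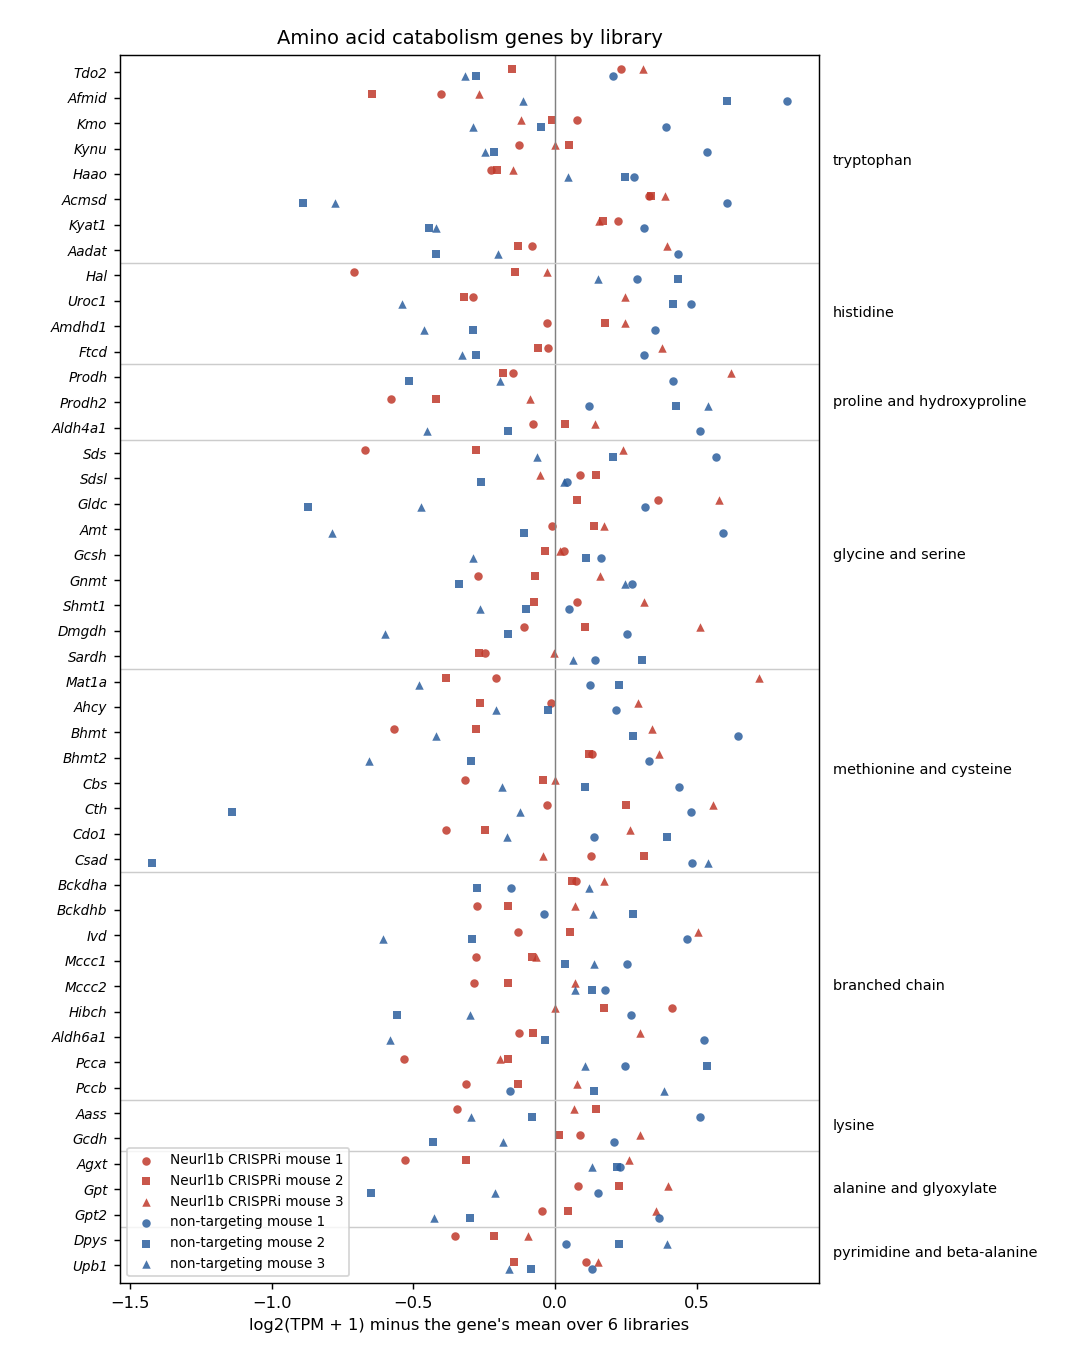
Each row is 1 gene, and each point is the log2(TPM + 1) of 1 library minus the gene's mean over the 6 libraries, with Neurl1b CRISPRi mice in red and non-targeting mice in blue. Within the groups, Neurl1b CRISPRi mouse 3 is the highest in 39 of the 48 rows and non-targeting mouse 1 in 37.

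The comparison asked which catabolic mRNAs differed on ribosomes when Neurl1b was repressed. In limma on log2(TPM + 1), 0 of the 48 genes passed an adjusted p of 0.05 in either direction, where 0.0189% of all tested genes passed as higher and 0% as lower. At an unadjusted p below 0.05, 6 genes were lower, where 3.19% of all tested genes were, and 1 was higher, where 10.1% were. The groups did not overlap for 9 genes, all with less TPM in the Neurl1b CRISPRi mice, and for 0 genes with more. Among all tested genes these shares were 4.57% lower and 12.5% higher. The 9 genes were Afmid, Haao, Hal, Prodh2, Sardh, Mccc1, Mccc2, Pcca and Dpys, from 6 of the 9 groups. The median log2 fold change of the 48 was 0.07, with 21 of them (43.8%) below 0, against a median of 0.18 and 26.0% below 0 among all tested genes.

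Most tested genes, 7846 of 10598, had log2 fold changes above 0, although the TPM of each library add up to the same total. A rescaling that sets the median of all genes to 0 (median-of-ratios scaling) moved each catabolic gene down. After it, the median of the 48 was -0.15 and 0 genes passed. There were then 12 genes at an unadjusted p below 0.05, all lower, where 6.66% of all tested genes were lower and 6.44% higher. The groups did not overlap for 14 genes, again all lower, where 9.37% of all tested genes were lower and 9.42% higher.

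**Figure D2:**
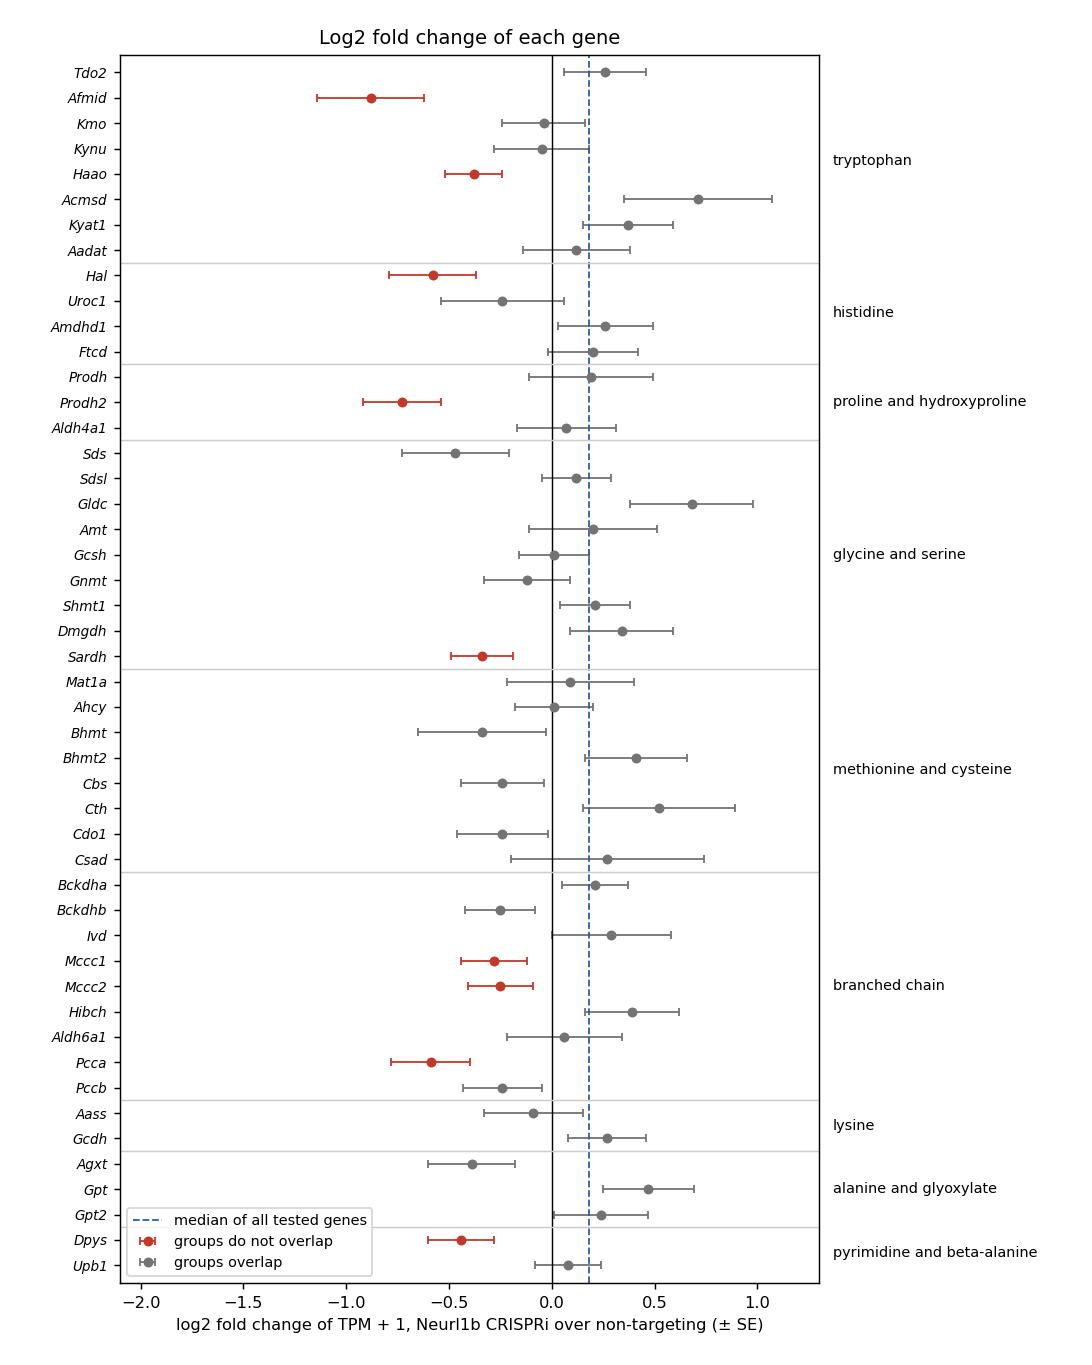
Points are log2 fold changes of TPM + 1, Neurl1b CRISPRi over non-targeting, with the SE from limma (n = 3 mice each), and red marks the 9 genes whose groups do not overlap. All red points lie below 0, the dashed line marks the median of all tested genes at 0.18, and no point passed an adjusted p of 0.05.

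The catabolic mRNAs ranged from 10.8 TPM for Afmid, at the 51.7th percentile of all tested genes, to 2737 TPM for Gnmt, at the 99.6th percentile, as means over the 6 libraries. After Gnmt the most abundant were Cth at 1104 TPM and Cdo1 at 876 TPM, and at the low end Amt had 21.8 TPM and Sdsl 22.8 TPM. The 48 together summed to 9894, 10560 and 13361 TPM in the Neurl1b CRISPRi mice, against 13639, 10269 and 10717 TPM in the non-targeting mice. These totals overlapped, with their highest values in Neurl1b CRISPRi mouse 3 and non-targeting mouse 1.

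In the tryptophan group the early step of the kynurenine pathway carried the largest negative log2 fold change of the 48. Tdo2, the dioxygenase that opens tryptophan, was at 620.1, 474 and 654 TPM in Neurl1b CRISPRi mice 1 to 3, against 607, 434 and 422 TPM in non-targeting mice 1 to 3. The groups overlapped, with mice 1 and 3 of the Neurl1b CRISPRi group and mouse 1 of the controls well above the other libraries (log2 fold change 0.26, SE 0.20, adjusted p = 0.521). Afmid, the formamidase that releases kynurenine from the product of Tdo2, was at 7.28, 6.01 and 8.09 TPM in Neurl1b CRISPRi mice 1 to 3, against 18.3, 15.7 and 9.14 TPM in non-targeting mice 1 to 3. Each Neurl1b CRISPRi value lay under each control value, narrowly so for non-targeting mouse 3, and the mean was 2.02-fold lower (log2 fold change -0.88, SE 0.26, adjusted p = 0.323). Haao, the dioxygenase that forms the precursor of quinolinate, was at 254, 258 and 268 TPM in Neurl1b CRISPRi mice 1 to 3, against 360.4, 353 and 306 TPM in non-targeting mice 1 to 3. Its values did not overlap and varied little within the Neurl1b CRISPRi group (log2 fold change -0.38, SE 0.14, adjusted p = 0.345).

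Acmsd, a decarboxylase that diverts that precursor away from NAD synthesis, had the largest positive log2 fold change of the 48, while by the ratio of mean TPM Gldc was further up, at 1.54 against 1.45. Acmsd TPM was 117, 117 and 121 in the Neurl1b CRISPRi mice, against 141, 49.3 and 53.5 in the non-targeting mice. The highest and both of the lowest values were controls, so the groups overlapped through non-targeting mouse 1 alone (log2 fold change 0.71, SE 0.36, adjusted p = 0.406). The remaining genes of the group, the hydroxylase gene Kmo, the kynureninase gene Kynu and the transaminase genes Kyat1 and Aadat, had log2 fold changes from -0.05 to 0.37, and their groups overlapped. Summed over the 8 genes, the level was 1254, 1106 and 1304 TPM in the Neurl1b CRISPRi mice, against 1452, 1062 and 989 TPM in the non-targeting mice.

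The Afmid value has to be read with its locus. In GENCODE vM21 (GRCm38, another build than the mm39 named in the submitters' processing notes) the last exon of Afmid overlaps that of Gm20708, a gene on the same strand that the annotation tags as a readthrough transcript, and 64.4% of the 31-base words of the main Afmid transcript also occur in it. Reads from such stretches are divided between both genes by estimation. Gm20708 spans bases 117809668 to 117839904 of chromosome 11, and Afmid bases 117825924 to 117839908. The readthrough gene thus starts before Afmid, and its TPM can include reads from outside Afmid. Gm20708 was at 2.32, 3.89 and 4.87 TPM in the Neurl1b CRISPRi mice, against 7.91, 13.1 and 18.2 TPM in the non-targeting mice. Its control values were lowest in non-targeting mouse 1 and highest in mouse 3, the reverse of Afmid (log2 fold change -1.56, SE 0.32, adjusted p = 0.259).

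Added together, a step chosen after the values were seen, the Afmid and Gm20708 levels were 9.61, 9.90 and 13.0 TPM in the Neurl1b CRISPRi mice, against 26.2, 28.8 and 27.4 TPM in the non-targeting mice. The sum averaged 10.8 ± 1.86 TPM in the Neurl1b CRISPRi mice and 27.5 ± 1.29 TPM in the non-targeting mice (SD, n = 3 each), 2.54-fold lower. That sum can hold reads from outside Afmid, so it is not the level of Afmid alone. The control mice lay close together and far above the highest Neurl1b CRISPRi mouse, yet the sum did not pass over all genes (log2 fold change -1.28, SE 0.17, limma adjusted p = 0.131). Its adjusted p was 0.173 with median-of-ratios scaling and ran from 0.0172 without non-targeting mouse 1 to 0.541 without non-targeting mouse 3, with log2 fold changes of -1.40 to -1.21 when single mice were left out. Leaving out non-targeting mouse 1 changed the call, and leaving out any one mouse did not change the direction.

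Tk1 and Birc5, which lie beside Afmid, are cell division genes, which is why its promoter is shown. Tk1, the thymidine kinase gene, is transcribed away from Afmid on the other strand, and their annotated 5′ ends overlap by 168 bases in GENCODE vM21. Birc5, which encodes survivin, lies 9343 bases beyond the end of Afmid on its strand. Tk1 was at 3.75, 6.53 and 11.4 TPM in the Neurl1b CRISPRi mice, against 14.3, 14.7 and 12.3 TPM in the non-targeting mice (log2 fold change -0.95, SE 0.32, adjusted p = 0.344). Birc5 was at 8.91, 14.6 and 18.4 TPM in the Neurl1b CRISPRi mice, against 34.3, 37.9 and 37.2 TPM in the non-targeting mice (log2 fold change -1.37, SE 0.25, adjusted p = 0.250). For both neighbours the groups did not overlap and the Neurl1b CRISPRi values were the lower ones. The 4 genes named here thus lay on the same side without passing the test. Gm20708, Tk1 and Birc5 were chosen after their values were seen, and other genes nearby were not examined. Afmid and Gm20708 share sequence, so their values are not separate observations. The RefSeq promoter window of Afmid, chr11:117825669-117825968 (GRCm38.p6, plus strand), runs from 250 bases before to 50 after its annotated start. Capitals mark the start codon of Tk1, which reads CAT on this strand and stands 142 bases before the Afmid start, and a GC box (GGGCGG) 50 bases before the start.
Afmid: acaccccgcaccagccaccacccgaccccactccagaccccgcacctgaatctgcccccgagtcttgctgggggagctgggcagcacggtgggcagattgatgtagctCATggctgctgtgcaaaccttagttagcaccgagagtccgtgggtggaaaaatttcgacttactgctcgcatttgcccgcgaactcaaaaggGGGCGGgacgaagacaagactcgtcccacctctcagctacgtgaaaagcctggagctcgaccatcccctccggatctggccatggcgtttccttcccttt

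**Figure D3:**
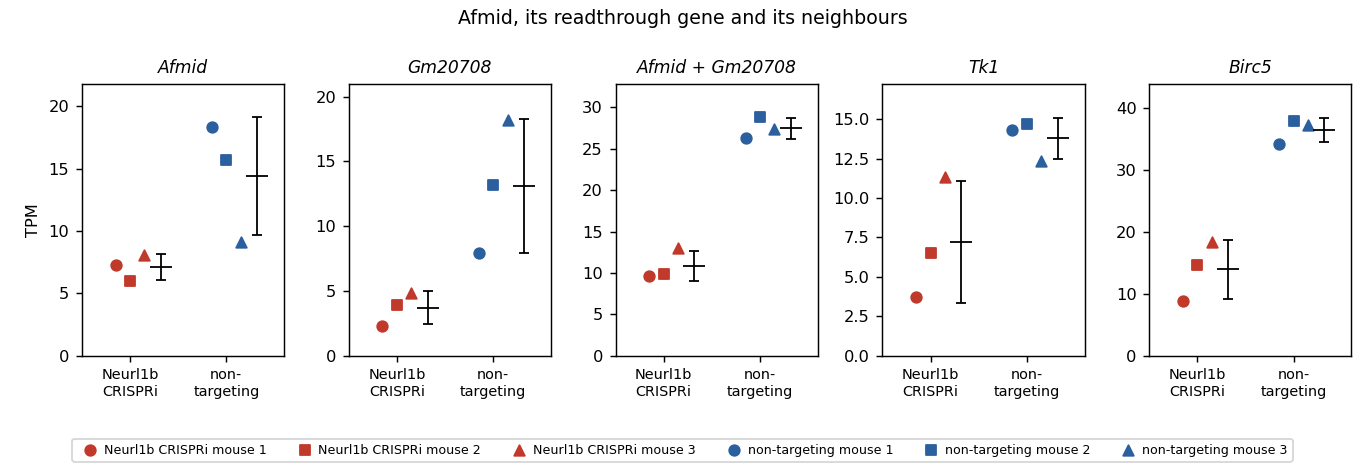
TPM of Afmid, of the readthrough gene Gm20708, of their sum and of the neighbours Tk1 and Birc5, with 1 point per mouse, Neurl1b CRISPRi left of non-targeting, and the mean ± SD (n = 3) as bars. No panel has overlapping groups, and the sum of Afmid and Gm20708 is 9.61 to 13.0 TPM in the Neurl1b CRISPRi mice, against 26.2 to 28.8 TPM in the non-targeting mice.

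Among the 4 histidine genes, the first and the third step lay on opposite sides of 0. Hal, histidase, which removes ammonia from histidine to give urocanate, was at 73.8, 110.1 and 119 TPM in Neurl1b CRISPRi mice 1 to 3, against 149, 164 and 135 TPM in non-targeting mice 1 to 3. Its groups did not overlap, and the mean was 1.48-fold lower, with mouse 1 well under the other Neurl1b CRISPRi mice (log2 fold change -0.58, SE 0.21, adjusted p = 0.344). Amdhd1, the imidazolonepropionase of the third step, was at 97.5, 113 and 118 TPM in Neurl1b CRISPRi mice 1 to 3, against 127, 81.2 and 71.9 TPM in non-targeting mice 1 to 3. Non-targeting mouse 1 was the highest and the other control mice the lowest of the 6 (log2 fold change 0.26, SE 0.23, adjusted p = 0.557). Uroc1, urocanase, and Ftcd, which passes the one-carbon unit of histidine to folate, had log2 fold changes of -0.24 and 0.20 with overlapping groups.

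In the proline group the groups did not overlap for the hydroxyproline enzyme and overlapped for the other 2 genes. Prodh2, which oxidises hydroxyproline, was at 59.5, 66.7 and 84.1 TPM in Neurl1b CRISPRi mice 1 to 3, against 97.3, 121 and 131 TPM in non-targeting mice 1 to 3. All Neurl1b CRISPRi values lay under all control values, the mean was 1.66-fold lower, and its unadjusted p was the smallest of the 48 (log2 fold change -0.73, SE 0.19, adjusted p = 0.312). Prodh, proline dehydrogenase, was at 31.8, 30.9 and 54.7 TPM in Neurl1b CRISPRi mice 1 to 3, against 47.4, 24.4 and 30.7 TPM in non-targeting mice 1 to 3, which is a spread led by mouse 3 of the Neurl1b CRISPRi group and mouse 1 of the controls (log2 fold change 0.19, SE 0.30, adjusted p = 0.734). Aldh4a1, the dehydrogenase that both routes share, was at 123, 133 and 143 TPM in Neurl1b CRISPRi mice 1 to 3, against 185, 115 and 94.3 TPM in non-targeting mice 1 to 3, with the highest and the lowest value among the controls (log2 fold change 0.07, SE 0.24, adjusted p = 0.890). The signs of Prodh and Aldh4a1 turned with median-of-ratios scaling, to -0.01 and -0.14, while Prodh2 was at -0.94.

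The glycine and serine group holds the most abundant mRNA of the 48, Gnmt, which uses up S-adenosylmethionine by methylating glycine. Gnmt was at 2234, 2571 and 3018 TPM in Neurl1b CRISPRi mice 1 to 3, against 3258, 2135 and 3208 TPM in non-targeting mice 1 to 3. The groups overlapped, since non-targeting mouse 2 was the lowest of the 6 libraries (log2 fold change -0.12, SE 0.21, adjusted p = 0.764). Gldc, the decarboxylase of the glycine cleavage complex, was the only gene of the 48 with an unadjusted p below 0.05 and more TPM in the Neurl1b CRISPRi mice. It was at 57.1, 46.6 and 66.5 TPM in Neurl1b CRISPRi mice 1 to 3, against 55.3, 23.7 and 31.5 TPM in non-targeting mice 1 to 3. Non-targeting mouse 1 lay inside the Neurl1b CRISPRi range and the other control mice below it (log2 fold change 0.68, SE 0.30, adjusted p = 0.375). Its partners in the complex, Amt and Gcsh, had log2 fold changes of 0.20 and 0.01.

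Sardh, which demethylates sarcosine in mitochondria, was at 309, 304 and 365 TPM in Neurl1b CRISPRi mice 1 to 3, against 404, 453 and 383 TPM in non-targeting mice 1 to 3. The groups did not overlap, with Neurl1b CRISPRi mouse 3 nearest to the controls (log2 fold change -0.34, SE 0.15, adjusted p = 0.381). Dmgdh, which carries out the step before it, had a log2 fold change of 0.34 with overlapping groups. The serine genes were on both sides, with -0.47 for the dehydratase Sds, 0.12 for its relative Sdsl and 0.21 for the hydroxymethyltransferase Shmt1, all with overlap.

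None of the 8 methionine and cysteine genes had groups that did not overlap. Bhmt2, a homocysteine methyltransferase, was at 96.3, 95.7 and 114 TPM in Neurl1b CRISPRi mice 1 to 3, against 111, 71.3 and 55.4 TPM in non-targeting mice 1 to 3. All Neurl1b CRISPRi values lay above non-targeting mice 2 and 3, with non-targeting mouse 1 among them (log2 fold change 0.41, SE 0.25, adjusted p = 0.445). Cth, which releases cysteine from cystathionine, was at 1014, 1229.7 and 1522 TPM in Neurl1b CRISPRi mice 1 to 3, against 1441, 469 and 948 TPM in non-targeting mice 1 to 3. Non-targeting mouse 2 was far below every other library (log2 fold change 0.52, SE 0.37, adjusted p = 0.493). The rest ran from -0.34 for the betaine-dependent methyltransferase gene Bhmt to 0.27 for Csad of taurine synthesis, with 0.09 for the S-adenosylmethionine synthetase gene Mat1a, 0.01 for Ahcy, -0.24 for the cystathionine synthase gene Cbs and -0.24 for the cysteine dioxygenase gene Cdo1.

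Dmgdh and Bhmt2 start 131 bases apart on opposite strands of chromosome 13 in GENCODE vM21, so that both genes face the same short stretch of DNA. Dmgdh was at 47.0, 54.7 and 72.8 TPM in Neurl1b CRISPRi mice 1 to 3, against 60.7, 45.2 and 33.2 TPM in non-targeting mice 1 to 3. As with Bhmt2, the highest values were those of mouse 3 of the Neurl1b CRISPRi group and mouse 1 of the controls, and the groups overlapped (log2 fold change 0.34, SE 0.25, adjusted p = 0.510). Within their groups these mice were the highest in 39 and 37 of the 48 genes, so this ranking is not particular to the pair. The window on the Dmgdh side, chr13:93674186-93674485 (GRCm38.p6, plus strand, RefSeq), is given with its GC boxes in capitals, which read CCGCCC on this strand and stand 99 bases before and 16 bases after the annotated start.
Dmgdh: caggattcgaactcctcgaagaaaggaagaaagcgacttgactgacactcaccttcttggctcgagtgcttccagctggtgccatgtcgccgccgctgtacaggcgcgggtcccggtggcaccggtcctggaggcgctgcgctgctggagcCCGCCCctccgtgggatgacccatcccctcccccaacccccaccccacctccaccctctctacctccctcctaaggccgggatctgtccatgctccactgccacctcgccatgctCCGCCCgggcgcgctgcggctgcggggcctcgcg

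Promoter windows of this kind, 300 bases each, were found for 40 of the 48 genes. A gene was counted if any of its windows held the letters on either strand. The GC box GGGCGG was in 20 of the 40 genes (50%), against 38.5% of all 26742 genes with such windows in the RefSeq table. The CCAAT box (CCAAT) was in 25 (62.5%, against 41% of all), the TATA box (TATAAA) in 3 (7.5%, against 15.6%) and the cell cycle homology region TTTGAA in 6 (15%, against 20.1%). These are matches of letters, given as a description. Of the 48 genes, 5 have a protein-coding gene that starts on the other strand within 500 bases, which besides Afmid, Dmgdh and Bhmt2 are Bckdha beside Exosc5 and Aldh6a1 beside Lin52.

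The branched chain group had the lowest median of the 9 groups, at -0.24, with 5 of 9 genes below 0, where 26.0% of all tested genes were, and 3 with less TPM and no overlap, where 4.57% were. Pcca, the biotin-carrying subunit of propionyl-CoA carboxylase, was at 17.0, 22.2 and 21.8 TPM in Neurl1b CRISPRi mice 1 to 3, against 29.9, 36.8 and 27.1 TPM in non-targeting mice 1 to 3. The mean was 1.54-fold lower without overlap (log2 fold change -0.59, SE 0.19, adjusted p = 0.332). Its partner subunit Pccb had a log2 fold change of -0.24 with overlap. Mccc1, a subunit of the carboxylase of the leucine pathway, was at 23.8, 27.5 and 27.7 TPM in Neurl1b CRISPRi mice 1 to 3, against 34.9, 29.8 and 32.1 TPM in non-targeting mice 1 to 3. The groups did not overlap, with the nearest values in Neurl1b CRISPRi mouse 3 and non-targeting mouse 2 (log2 fold change -0.28, SE 0.16, adjusted p = 0.425). The partner subunit Mccc2 had a log2 fold change of -0.25, and Neurl1b CRISPRi mouse 3 and non-targeting mouse 3 were nearly equal at 35.6 TPM each.

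Bckdha, the alpha subunit of the dehydrogenase that commits branched chain keto acids to oxidation, was the most abundant of the group at 224, 222 and 240.3 TPM in Neurl1b CRISPRi mice 1 to 3, against 191, 176 and 232 TPM in non-targeting mice 1 to 3. The groups overlapped through non-targeting mouse 3 (log2 fold change 0.21, SE 0.16, adjusted p = 0.521). Its partner Bckdhb had a log2 fold change of -0.25, and the difference between both subunits was not tested. Ivd, of leucine breakdown, and Hibch and Aldh6a1, of valine breakdown, had log2 fold changes of 0.29, 0.39 and 0.06, each with overlap.

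For lysine, Aass, the bifunctional enzyme of its first steps, was at 35.6, 50.5 and 47.8 TPM in Neurl1b CRISPRi mice 1 to 3, against 65.5, 43.1 and 36.9 TPM in non-targeting mice 1 to 3. The highest value was a control and the lowest a Neurl1b CRISPRi mouse, with overlap (log2 fold change -0.09, SE 0.24, adjusted p = 0.852). Gcdh, glutaryl-CoA dehydrogenase, was at 249, 236 and 288 TPM in Neurl1b CRISPRi mice 1 to 3, against 271, 173 and 206 TPM in non-targeting mice 1 to 3. Its Neurl1b CRISPRi values exceeded those of non-targeting mice 2 and 3 and lay on both sides of mouse 1 (log2 fold change 0.27, SE 0.19, adjusted p = 0.501).

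Of the 3 transaminases of alanine and glyoxylate, Agxt had a log2 fold change below 0, and Gpt and Gpt2 had ones above 0. Agxt, which detoxifies glyoxylate with alanine, was at 161, 187 and 279 TPM in Neurl1b CRISPRi mice 1 to 3, against 273, 271 and 255 TPM in non-targeting mice 1 to 3. The controls lay close together, and Neurl1b CRISPRi mouse 3 stood above them while mice 1 and 2 were below (log2 fold change -0.39, SE 0.21, adjusted p = 0.418). Gpt, the cytosolic alanine transaminase, was at 388, 429 and 484 TPM in Neurl1b CRISPRi mice 1 to 3, against 407, 233 and 316 TPM in non-targeting mice 1 to 3. Of the Neurl1b CRISPRi mice only mouse 1 was under a control, non-targeting mouse 1 (log2 fold change 0.47, SE 0.22, adjusted p = 0.387). Gpt2, its mitochondrial relative, had a log2 fold change of 0.24.

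Dpys and Upb1 act one after the other in the breakdown of uracil to beta-alanine. Dpys, dihydropyrimidinase, was at 98.2, 108 and 117 TPM in Neurl1b CRISPRi mice 1 to 3, against 129, 147 and 165 TPM in non-targeting mice 1 to 3. All Neurl1b CRISPRi values lay under all control values, with a mean 1.36-fold lower (log2 fold change -0.44, SE 0.16, adjusted p = 0.344). The transcript with the most Dpys TPM (49.5%) did not share this difference, at 63.2, 61.2 and 65.7 TPM in the Neurl1b CRISPRi mice, against 76.8, 58.8 and 53.0 TPM in the non-targeting mice. The next one (48.3%) was at 32.1, 43.9 and 49.5 TPM in the Neurl1b CRISPRi mice, against 48.8, 85.3 and 109.7 TPM in the non-targeting mice, with a small overlap. Upb1, beta-ureidopropionase, was at 136, 114 and 140.0 TPM in Neurl1b CRISPRi mice 1 to 3, against 138, 119 and 112 TPM in non-targeting mice 1 to 3, with the groups interleaved (log2 fold change 0.08, SE 0.16, adjusted p = 0.809).

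When the TPM of each group were added up, the pyrimidine and beta-alanine pair was the only one of the 9 groups with no overlap. Its sum was 234, 222 and 258 TPM in the Neurl1b CRISPRi mice, against 267, 266 and 278 TPM in the non-targeting mice, a ratio of the means of 0.88, and it includes both of the main Dpys transcripts. Ratios of the other groups ran from 0.859 for proline and hydroxyproline to 1.14 for lysine. In all 9 groups Neurl1b CRISPRi mouse 3 had the highest sum of the Neurl1b CRISPRi mice, and in each but that pair non-targeting mouse 1 had the highest sum of the controls. Such sums are led by the most abundant genes, as Gnmt leads the glycine and serine group.

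**Figure D4:**
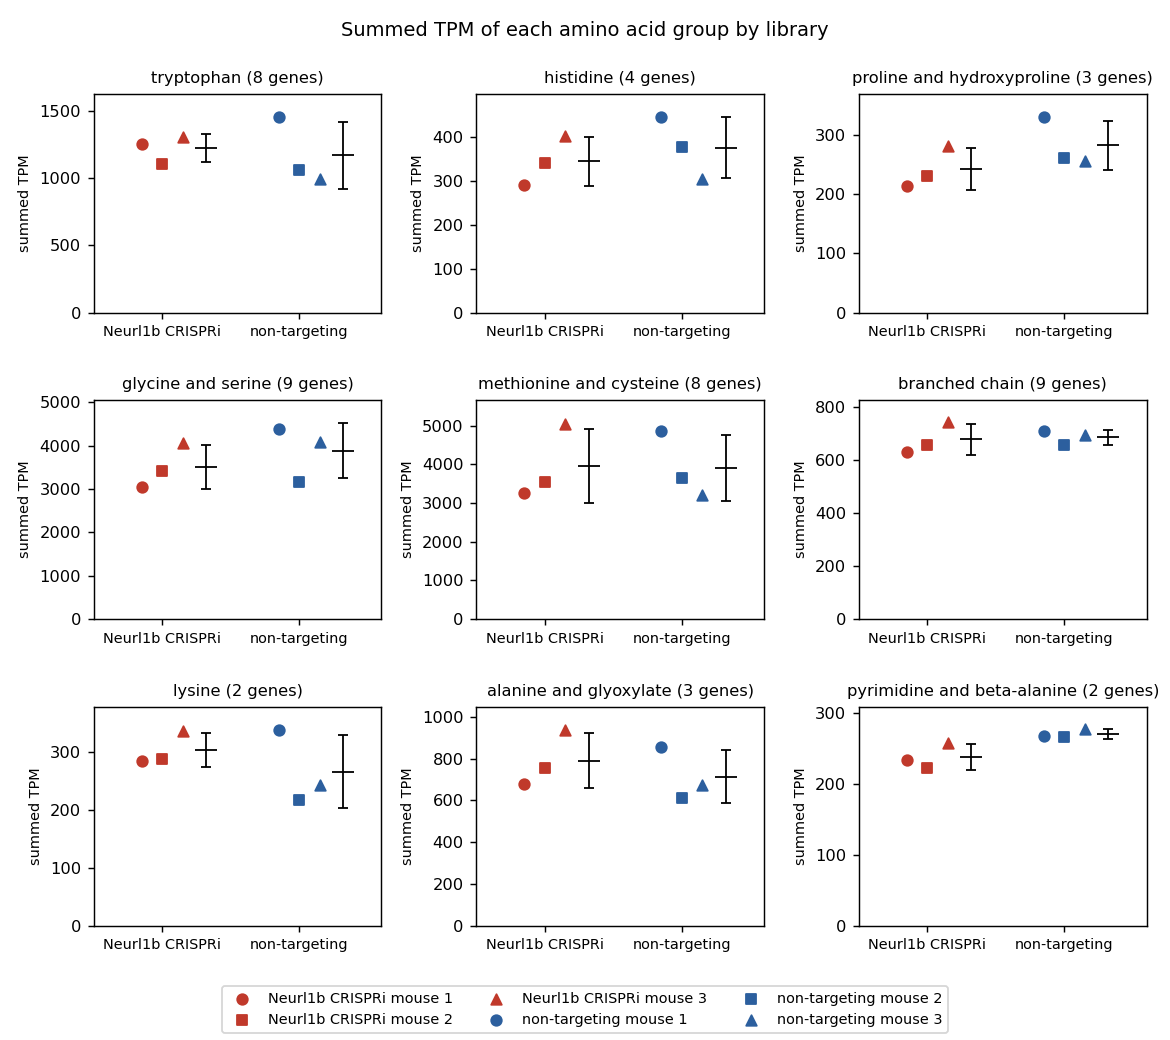
Summed TPM of the genes of each amino acid group, with 1 point per mouse, Neurl1b CRISPRi left of non-targeting, and the mean ± SD (n = 3) as bars. The groups overlap in each panel but that of pyrimidines and beta-alanine, where the Neurl1b CRISPRi mice are at 222 to 258 TPM and the non-targeting mice at 266 to 278 TPM.

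Because non-targeting mouse 1 lay nearer to the Neurl1b CRISPRi libraries than the other controls did, the comparison was repeated without it. Leaving out a control for that reason widens the difference between the groups by itself. The calls made without it are therefore a description of how much rests on this mouse, and no support for a difference. When any other single mouse was left out, non-targeting mouse 2 included, 0 of the 48 genes passed. Without non-targeting mouse 1, 9 of the 48 genes passed an adjusted p of 0.05, where 23.1% of all tested genes passed as higher and 2.24% as lower. The 7 higher ones were Acmsd (log2 fold change 1.19), Gldc (1.01), Bhmt2 (0.68), Gpt (0.67), Kyat1 (0.62), Hibch (0.62) and Amdhd1 (0.51), a share of the 48 below that of all genes. The 2 lower ones were Prodh2 (-0.85) and Dpys (-0.53). At an unadjusted p below 0.05 there were 7 lower and 13 higher genes, where 4.52% of all tested genes were lower and 39.7% higher. Adjusted p ran from 0.0173 for Acmsd to 0.0444 for Gpt, and over the 17 alternatives that of Acmsd reached 0.809.

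With median-of-ratios scaling as well, 4 genes passed, where 2.74% of all tested genes passed as lower and 1.74% as higher. At an unadjusted p below 0.05 there were 13 lower and 3 higher genes, where 16.5% of all tested genes were lower and 14% higher. The 4 were Haao (log2 fold change -0.69, adjusted p = 0.0425), Prodh2 (-1.20, adjusted p = 0.0403) and Dpys (-0.88, adjusted p = 0.0419), all lower, and Acmsd (0.84, adjusted p = 0.0339), higher. Prodh2, Dpys and Acmsd were thus called both ways once non-targeting mouse 1 was left out, and none of them with it and equal weights. With all 6 libraries, each weighted by how far it deviates from its group (array weights), 3 lower genes, Afmid, Prodh2 and Dpys, and 4 higher ones, Acmsd, Kyat1, Gldc and Gpt, passed, where 2.33% of all tested genes passed as lower and 18.5% as higher. The counts at an unadjusted p below 0.05 were then 9 lower and 8 higher, where 5.04% of all tested genes were lower and 37.1% higher. Over the 17 alternatives the adjusted p of Prodh2 ran from 0.0232 to 0.768, and that of Dpys from 0.0340 to 0.768.

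**Figure D5:**
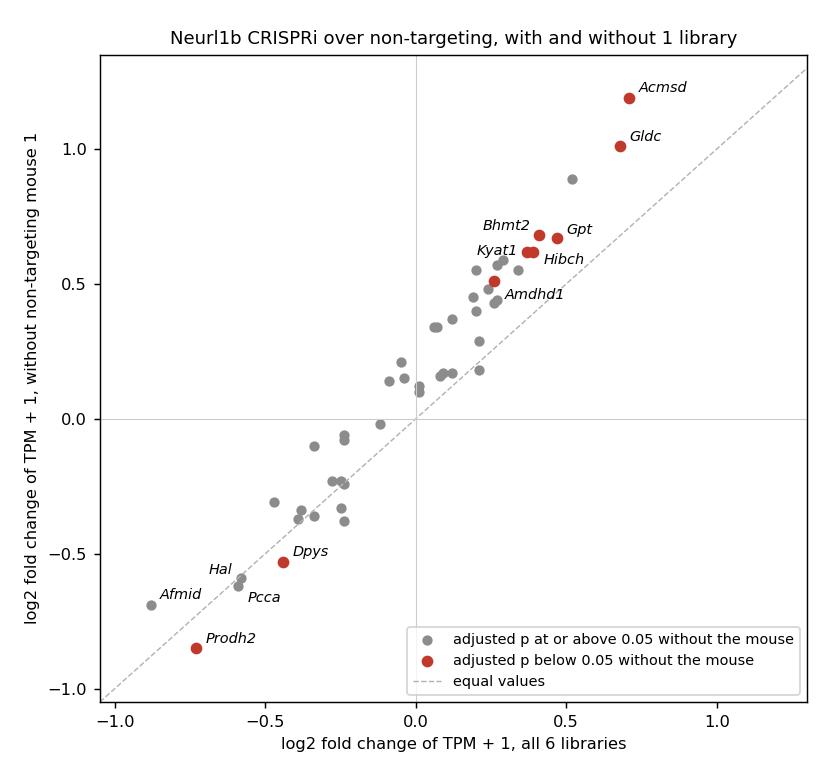
Log2 fold change of TPM + 1, Neurl1b CRISPRi over non-targeting, of each of the 48 genes with all 6 libraries (x axis) and without non-targeting mouse 1 (y axis), with the line of equal values. Red marks the 9 genes at an adjusted p below 0.05 without that mouse, 7 above 0 and 2 below, and most points lie above the line.

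Several of these mRNAs come in many transcripts or share sequence with other genes, which bears on the estimates. In 16 of the 48 genes the leading transcript held at least 90% of the TPM, and in 17 under 60%. With the leading transcript alone, an alternative chosen after the values were seen, 5 of the 9 genes listed above still had groups that did not overlap, and those of Afmid, Dpys, Mccc2 and Pcca overlapped. The log2 ratios of the mean TPM of these leading transcripts, with 1 added to each mean, were -0.79 for Afmid and -0.84 for Pcca. Those of Dpys and Mccc2 were 0.01 and 0.07, so that the differences of Dpys and Mccc2 were those of their other transcripts. Bckdha then had more TPM in the Neurl1b CRISPRi mice without overlap. Of the 5 genes, Hal, Mccc1 and Sardh had leading transcripts of 851, 468 and 770 bases, against 1381 for Haao and 1853 for Prodh2. The transcript with the next most TPM was again lower without overlap for Haao. For Hal, Mccc1, Sardh and Prodh2 its groups overlapped. That of Prodh2 was at 0, 2.27 and 4.61 TPM in Neurl1b CRISPRi mice, against 0, 27.9 and 35.9 TPM in controls. High values in non-targeting mice 2 and 3 were not confined to Prodh2. A lesser transcript of Cdo1 was at 0, 8.68 and 11.0 TPM in Neurl1b CRISPRi mice, against 5.77, 140 and 214 TPM in controls. One of Sardh was at 3.51, 18.0 and 18.3 TPM, against 13.7, 46.9 and 50.1 TPM. One of Cbs went the other way, at 42.1, 28.0 and 41.2 TPM, against 69.2, 0.374 and 0 TPM. The cause of this spread between controls was not tested. In 33 genes under 1% of the 31-base words of the leading transcript occurred in other genes. At least 10% did in 8 genes, which were Afmid, Aldh4a1, Sds, Sardh, Ahcy, Bhmt, Bhmt2 and Bckdha, so their division of reads is uncertain. The values of Ahcy and Bhmt can exchange reads with the predicted genes Gm4737 and Gm5096, which were at no more than 1.25 and 2.38 TPM in any library. Sardh shares words with its antisense gene Sardhos, and whether strand was used in the estimates is not given.

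Around these enzymes, 100 other genes of the same pathways, of amino acid transport and of its regulation were followed, of which 89 could be tested. None passed the adjusted threshold, 26 were below 0 and 63 above, and the median was 0.16, against 0.18 among all tested genes, of which 26.0% were below 0. At an unadjusted p below 0.05, 5 were lower and 6 higher, where 3.19% of all tested genes were lower and 10.1% higher. Groups without overlap were found for 7 lower and 8 higher genes, where 4.57% of all tested genes were lower and 12.5% higher. Hao1, which oxidises glycolate to the glyoxylate that Agxt clears, was at 25.7, 32.4 and 34.3 TPM in the Neurl1b CRISPRi mice, against 70.8, 92.8 and 53.9 TPM in the non-targeting mice. Its groups did not overlap, and the mean was 2.35-fold lower (log2 fold change -1.19, SE 0.22, adjusted p = 0.259). Enzymes of synthesis lay on the other side, with log2 fold changes of 0.85 for Aldh18a1 of proline synthesis (adjusted p = 0.259) and 0.80 for Psat1 of serine synthesis (adjusted p = 0.310).

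Mpst of cysteine breakdown and Gcat of threonine breakdown had log2 fold changes of -0.56 and -0.45 without overlap. Bckdk, the kinase that switches off the branched chain dehydrogenase, had a log2 fold change of 0.52 (adjusted p = 0.344), with 15.3, 14.7 and 17.5 TPM in the Neurl1b CRISPRi mice, against 9.95, 9.34 and 13.3 TPM in the non-targeting mice. Its values were higher in each Neurl1b CRISPRi mouse than in each control. Slc1a4, a carrier of small neutral amino acids, had the largest log2 fold change among the other pathway genes named here, 1.83 (adjusted p = 0.310), at 37.2, 31.2 and 29.7 TPM in the Neurl1b CRISPRi mice, against 21.6, 4.04 and 6.41 TPM in the non-targeting mice. Non-targeting mouse 1 lay between the other controls and the Neurl1b CRISPRi mice. Slc43a1, a carrier of large neutral amino acids, had a log2 fold change of -0.50, the glucagon receptor gene Gcgr 0.43 and the transcription factor gene Creb1 0.33, each without overlap.

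The other genes named by the same rule had log2 fold changes from -0.31 for Acat1 to 0.41 for Dlst. Between them were Gls2 (-0.28), Etfb (-0.24), Dpyd (-0.12), Mthfs (-0.04), Ido2 (0.27), Abat (0.29), Nadsyn1 (0.33), Got2 (0.33) and Mat2b (0.37). Of these 11 genes, only Etfb, a subunit of the flavoprotein that takes electrons from Gcdh and Ivd, had groups that did not overlap, with 971, 966 and 877 TPM in the Neurl1b CRISPRi mice, against 1071, 1098 and 1151 TPM in the non-targeting mice. The part of single control mice, of the macrophage and stellate cell markers and of the hepatocyte marker sum in these differences was not tested.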

How the data were processed

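Ribosome-bound, poly(A)-selected RNA was measured in 6 mouse livers. The authors deposited 1 table of TPM for 117486 transcripts with gene symbols. They made it with kallisto and the build mm39, per the submitters' processing notes, and neither version nor transcript set is given in the sources used here. Column sums lie at 999999.8 to 1000000.2. The depth is therefore unknown, and no counting interval is given. TPM are shares, so abundant genes move all others, and reads of similar transcripts are divided by estimation.

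TPM were summed by symbol, leaving out 168 transcripts without one (116 to 142.6 TPM per library). The filter kept symbols whose TPM averaged at least 1, and the test ran on log2(TPM + 1), where the pseudocount of 1 understates the change of low genes. The test was limma 3.58.1 in R 4.3.3, with a trended prior, two-sided, for Neurl1b CRISPRi minus non-targeting without covariates. P-values were adjusted over all 10598 genes by the Benjamini-Hochberg method, with a threshold of 0.05. The procedure was run on simulated data with independent noise for each gene. That simulation held no shift shared by the genes of a library, so it does not cover differences between whole libraries. A value written as "-fold" divides one mean TPM by the other. Neurl1b did not pass the filter and was compared by an exact permutation test. Groups and mouse numbers come from the sample titles.

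Members, lists and the rule for named genes were chosen with earlier results of these data known. Values in every library are given for the 2 genes with the smallest p and the most abundant gene of each amino acid group, and for genes with a log2 fold change of at least 0.5 in size, 23 in all. Of the other pathway genes the 2 with the smallest p per list are named. Dmgdh, Gm20708, Tk1 and Birc5 fall outside this rule and were chosen after their values were seen. Alternatives were other pseudocounts, filters, scalings, priors and weights, a replicate block by mouse number, and each mouse left out. Gene order and shared 31-base words came from GENCODE vM21 (GRCm38) and promoters from RefSeq (GRCm38.p6), another build than that of the table.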

Additional observations from a re-analysis of the deposited data

How the results depend on the processing

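Without depth, the precision of single values is unknown, and with 3 mice a group 1 mouse can decide a count. The number of all genes past the threshold, 2 with every mouse, was 2210 with array weights, 1 with a mean TPM of at least 5, 0 without the filter, with a pseudocount of 5 or with quantile normalization, 473 with median-of-ratios scaling and non-targeting mouse 1 left out, and 0 (without non-targeting mouse 3) to 2673 (without non-targeting mouse 1) when single mice were left out. For the 48 genes the count past the threshold, 0 in the report, was 7 with array weights (where 2.33% of all tested genes passed as lower and 18.5% as higher), 4 with median-of-ratios scaling and non-targeting mouse 1 left out, and 0 to 9 with single mice left out. The 89 other pathway genes, also 0, gave 17 with array weights (4 lower and 13 higher), 6 with that scaling and without that mouse (4 lower and 2 higher, where 2.74% and 1.74% of all tested genes were), and 0 to 27 with single mice left out, the 27 (3 lower and 24 higher, where 2.24% and 23.1% were) without non-targeting mouse 1. The 7 genes at an unadjusted p below 0.05 became 17 with array weights, 12 with median-of-ratios scaling, 16 with that scaling and without non-targeting mouse 1, and 2 (without Neurl1b CRISPRi mouse 1) to 20 (without non-targeting mouse 1) with single mice left out. The 9 genes whose groups did not overlap became 14 with median-of-ratios scaling, all lower (9.37% of all tested genes), 22 with that scaling and without non-targeting mouse 1 (18 lower and 4 higher, where 25.1% and 24.4% of all tested genes were), and 10 to 31 with single mice left out, where fewer values make overlap rarer. The 31 came without non-targeting mouse 1 (11 lower and 20 higher, where 8.08% and 52.3% were), and without any other single mouse there were 9 to 13 lower (5.69% to 8.84%) and 0 to 3 higher (14.4% to 24.4%). With the leading transcript alone there were 6, 5 lower and 1 higher. The median log2 fold change, 0.07, was -0.15 with median-of-ratios scaling, -0.18 with that scaling and without non-targeting mouse 1, and -0.12 to 0.17 with single mice left out. The cause of these shifts was not tested.

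Of the alternative values of the 23 named genes, 359 kept their direction and side of the threshold, 17 in 9 genes came to pass it, and 16 in 6 genes changed sign. With median-of-ratios scaling Prodh was at -0.01, Aldh4a1 at -0.14, Bckdha at -0.01 and Upb1 at -0.14, and without non-targeting mouse 1 as well Aldh4a1 was at -0.01, Bckdha at -0.17 and Upb1 at -0.19. With quantile normalization Aldh4a1 was at -0.03, Gnmt at 0.03 and Upb1 at -0.02, and with array weights Aass was at 0.16. With single mice left out, Prodh ran from -0.07 to 0.45, Aldh4a1 from -0.14 to 0.34 and Aass from -0.26 to 0.14.

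The mouse numbers are shared by the groups but do not pair the mice, since deviations of same-numbered mice had correlations of 0.061, -0.096 and -0.277. With the number as a replicate block, 0 of the 48 genes passed, 7 had an unadjusted p below 0.05 (5 lower and 2 higher) and 2 of all genes passed.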
